A study of Mus musculus with 8 samples.

Results

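The retinoid handling genes described here are 9 mouse genes grouped around the transport, conversion and sensing of vitamin A in the liver. The genes are Rbp4, Rdh7, Rdh10, Rdh11, Dhrs3, Aldh1a1, Aldh1a7, Rxra and Rarb. They were chosen by gene symbol, with earlier results of these data known. All 9 were present among the 11784 genes of the deposited liver table. RNA was sequenced from the whole livers of 8 C57BL/6J males, of which 4 ate the Control diet (TD.140711) and 4 ate the Low AA diet (TD.140712). Both are amino acid defined diets; amino acids supplied 22% of calories in Control and 7.1% in Low AA, with carbohydrate making up the difference. All mice changed to their diet at 9 weeks of age, stayed on it for about 4 months and were fasted for about 16 h before the livers were taken. The labels name no transgene or deleted gene, and a single sex and a single strain were studied. The values are read counts scaled between mice and rounded, called scaled reads below; they are not raw counts.

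Retinol reaches tissues bound to the secreted carrier RBP4, which travels in plasma together with transthyretin, and the liver both stores retinol as esters, mainly in stellate cells, and makes most of the circulating RBP4. Inside cells, retinol and retinal are converted into each other by short-chain dehydrogenases of the Rdh and Dhrs families, and retinal is oxidised irreversibly to retinoic acid by aldehyde dehydrogenases of the Aldh1a family. Retinoic acid binds RAR nuclear receptors, which act on DNA as heterodimers with RXR receptors, and CYP26 enzymes break it down.

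The liver label was checked against marker genes. All 8 hepatocyte markers looked for were in the table, with a summed level of 2268039 to 2723709 scaled reads in Control and 2508000 to 2731796 in Low AA. The 8 mice had between 27876664 and 30799385 scaled reads in all. Control mouse F2212 stood apart: its 10 acute-phase genes summed to 465179 scaled reads, the highest of the 8 mice, and its level of Cela1, a digestive elastase of the pancreas, was 36587. Cela1 was the only 1 of 10 pancreas markers in the table, and its level in the Low AA mice was 190 to 288. All 8 endothelial and all 8 Kupffer cell markers, 4 of 5 blood markers and 1 of 5 adipose markers (Fabp4) were found. Limma called none of these or of the hepatocyte and acute-phase genes between diets, but some lists leaned one way. The log2 fold change was positive in 8 of 8 Kupffer cell markers (median 0.23). It was negative in 4 of 4 blood markers (median -0.49) and in 8 of 10 acute-phase genes (median -0.56). A single mouse weighed on the acute-phase values. In F2212 Saa2 was 32724 and Lcn2 was 1830, against at most 503 and 391 in the other mice. The diets did not overlap in the acute-phase gene Orm1 (log2 fold change -2.06, limma adjusted p = 0.0908). The same held for the acute-phase gene Saa1 (-3.49, limma adjusted p = 0.261). It held too for Alas2, the heme synthesis enzyme of red cells (-0.49, limma adjusted p = 0.266). All were lower in Low AA. Over all genes, limma called 0.399% and the diets did not overlap in 6.81%, in either direction.

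RAR and RXR receptors bind pairs of short repeated sites, and the spacing named DR5 (direct repeat with 5 bases between the copies) is the best known. The letters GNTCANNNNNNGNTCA were searched on both strands of the 250 bases before each of 32851 RefSeq promoters (GRCm38), and 0.776% held a match. Of the 8 retinoid handling genes with a promoter entry, which have 15 promoters, Rarb alone held one. Of 48 genes of the wider retinoid lists with an entry, Rarb and Cyp26a1 held it. These promoters are shown because both genes are standard readouts of retinoic acid signalling; the matched letters are in capitals, and each window runs 5′ to 3′ on the strand of its gene. The Rarb window, chr14:16575477-16575726 on the minus strand, lies within the gene's own annotated span and has its match 52 to 37 bases before the start. The Cyp26a1 window, chr19:37697558-37697807 on the plus strand, has its match 32 to 17 bases before the start, read on the opposite strand.
Rarb: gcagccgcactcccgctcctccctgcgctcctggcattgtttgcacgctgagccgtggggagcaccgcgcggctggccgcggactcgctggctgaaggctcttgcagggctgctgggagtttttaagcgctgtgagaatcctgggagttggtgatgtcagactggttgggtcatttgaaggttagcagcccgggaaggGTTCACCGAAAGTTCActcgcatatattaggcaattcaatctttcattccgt
Cyp26a1: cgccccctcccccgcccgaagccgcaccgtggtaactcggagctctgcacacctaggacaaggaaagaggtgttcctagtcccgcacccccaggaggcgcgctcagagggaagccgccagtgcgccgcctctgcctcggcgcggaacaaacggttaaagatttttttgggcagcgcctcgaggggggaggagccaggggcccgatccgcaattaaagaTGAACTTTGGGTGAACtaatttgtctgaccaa
Shorter spacings were searched the same way. GNTCANNNGNTCA (DR2) was in 0.889% and GNTCANNGNTCA (DR1) in 1.01% of all promoters. Neither was in a promoter of the 8 retinoid handling genes or the 48 genes of the wider lists that have an entry. A match is a run of letters and not a measured binding site.

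None of the 9 genes passed the test between diets. Over all genes, 47 of 11784 (0.399%) were called in either direction by limma at an adjusted p under 0.05, against 0 of the 9. At an unadjusted p under 0.05, limma counted 1395 of all genes (11.8%) and 0 of the 9. The log2 fold change, Low AA minus Control, was negative in 7 of the 9. Its median was -0.14 and its range -0.28 to 0.32. Over all genes the median was 0.00 and 49.5% were negative. The 9 genes were chosen with earlier results of these data known. Their share of negative values therefore cannot be read as a response of the group. In 802 of all genes (6.81%) the 4 values of one diet did not overlap the 4 of the other. Among the 9 this held for 1 gene, Rdh11, or 11.1%, and a single gene cannot be read against that background. No 95% interval of the 9 reached a log2 change of 1 in either direction.

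**Figure D1:**
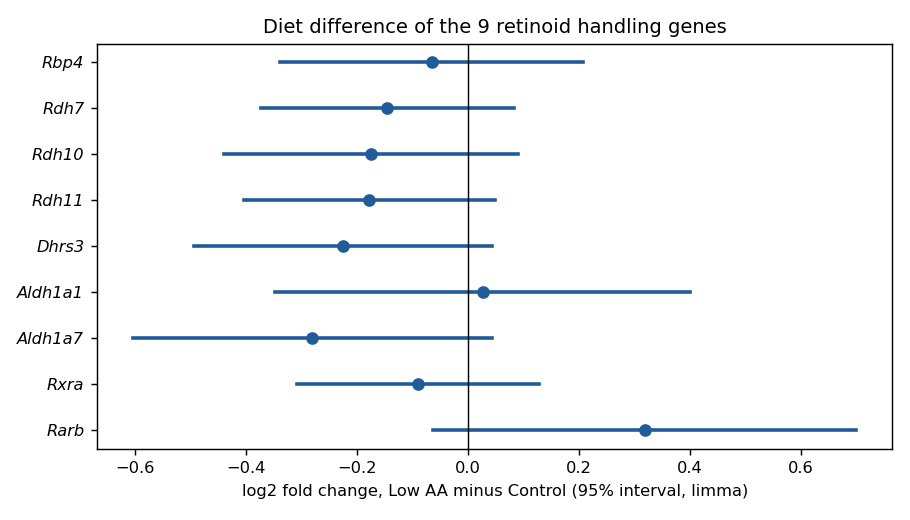
Log2 fold change, Low AA minus Control, of each of the 9 genes (point) with the 95% interval from limma (line), 4 mice per diet. All 9 intervals cross 0; Rarb is the highest at 0.32 and Aldh1a7 the lowest at -0.28.

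Levels were compared between genes per kb of the longest annotated transcript. Rbp4 was the highest, at 117886 ± 6980 scaled reads per kb in Control and 113063 ± 13110 in Low AA (SD, n = 4 each), and it ranked 35th among all genes before division by length. Rdh7 followed at 20647 ± 1834 and 18638 ± 855, then Aldh1a1 at 12345 ± 2710 and 12494 ± 1939, Rxra at 3016 ± 232 and 2833 ± 189, Aldh1a7 at 2123 ± 327 and 1752 ± 273, and Dhrs3 at 1080 ± 172 and 916 ± 47.1. The last 3 were Rdh10 at 106 ± 8.74 and 94.6 ± 11.1, Rdh11 at 96.0 ± 6.77 and 84.8 ± 2.97, and Rarb at 29.1 ± 3.24 and 36.8 ± 7.46. Each gene stood apart from the next over the 8 mice, except Rdh10 and Rdh11, which overlapped. The order was the same when all exons of a gene were counted instead of its longest transcript.

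**Figure D2:**
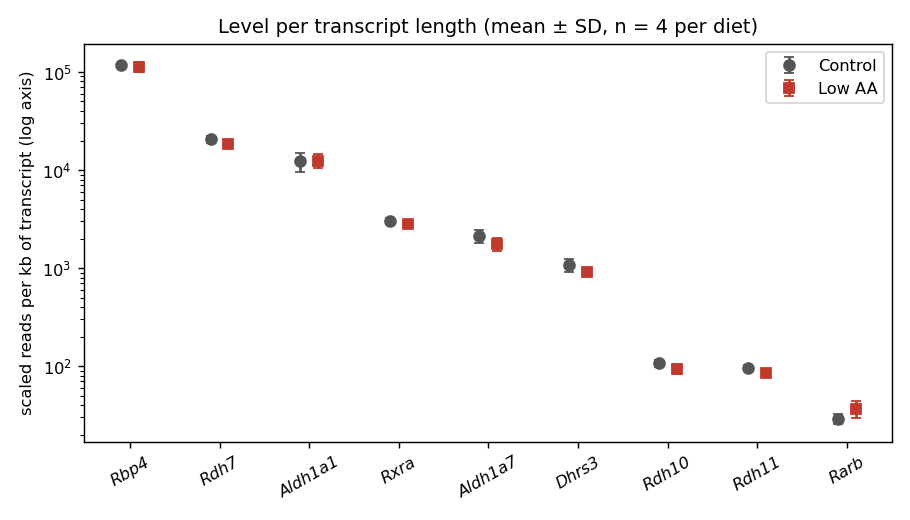
Level of the 9 genes in scaled reads per kb of longest transcript (log axis), mean ± SD of 4 mice, Control as circles and Low AA as squares. Rbp4 has means of 117886 and 113063 and Rarb of 29.1 and 36.8, and the 2 diets sit close together at every gene.

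Rbp4 (chr19:38116629-38125281, minus strand, GRCm38) encodes the plasma carrier of retinol. Its scaled reads were 143528, 143783, 127563 and 132592 in the Control mice F129, F2212, F7111 and F2110, and 123018, 122313, 125744 and 153988 in the Low AA mice H1126, H828, H817 and H1315; this order of mice is kept throughout. Of the Low AA mice, 3 lay below every Control mouse and the other, H1315, lay above all of them. The means were 136866 ± 8104 in Control and 131266 ± 15220 in Low AA, a log2 fold change of -0.07 (SE 0.12, limma adjusted p = 0.893). The interval of the difference ran from -20.9% to 15.5% of the Control level, with a point value of -4.42%. Without H1315 the log2 fold change was -0.14 (limma adjusted p = 0.668).

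Ttr, the plasma partner of RBP4, is not among the 9 genes but was measured beside it. Its scaled reads were 94429, 107837, 81485 and 78437 in Control and 102732, 74129, 77323 and 87247 in Low AA, and the diets overlapped (log2 fold change -0.09, SE 0.15, limma adjusted p = 0.882). Within each mouse, the log2 ratio of Rbp4 to Ttr was 0.61 ± 0.14 in Control and 0.63 ± 0.25 in Low AA, a difference of 0.02 that lies inside the spread of either diet.

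Of the retinol and retinal enzymes, Rdh7 (chr10:127884028-127888817, minus strand), a retinol dehydrogenase that also acts on hydroxysteroids, had 35823, 38016, 34002 and 30741 scaled reads in Control and 30953, 30109, 30676 and 33360 in Low AA. The lowest Control mouse, F2110, lay within the Low AA range. The means were 34646 ± 3077 and 31275 ± 1434, with a log2 fold change of -0.14 (SE 0.10, limma adjusted p = 0.654). Rdh7 sits on chromosome 10 in a cluster of related genes. Of the 1579 windows of 100 bases, the read length, in its transcript, 65 (4.12%) also occurred in transcripts of Hsd17b6, Rdh1, Rdh16f1, Rdh18-ps or Rdh19, so a small part of its reads is uncertain.

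Rdh10 (chr1:16105774-16133734, plus strand) encodes the dehydrogenase that oxidises retinol to retinal on the way to retinoic acid, and Dhrs3 (chr4:144892827-144928209, plus strand) encodes a reductase that turns retinal back into retinol. Rdh10 had 419, 364, 395 and 349 scaled reads in Control and 383, 360, 320 and 294 in Low AA, with a log2 fold change of -0.17 (SE 0.12, limma adjusted p = 0.642). The lower 2 Low AA mice were below every Control mouse and the other 2 lay among them. Dhrs3 had 2857, 2869, 2293 and 2074 scaled reads in Control and 2184, 2243, 1986 and 2149 in Low AA. In Dhrs3 the Control mice formed a high pair, F129 and F2212, and a lower pair, of which F2110 lay inside the Low AA range. The means were 2523 ± 402 and 2141 ± 110, with a log2 fold change of -0.22 (SE 0.12, limma adjusted p = 0.524). Both genes had negative values of similar size, so their log2 ratio within a mouse was -2.71 ± 0.20 in Control and -2.66 ± 0.15 in Low AA, a difference of 0.05 within the spread.

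Rdh11 (chr12:79174337-79192293, minus strand) encodes a reductase of retinal in the endoplasmic reticulum. It had 339, 322, 304 and 288 scaled reads in Control and 287, 266, 282 and 271 in Low AA. The diets did not overlap, but the lowest Control mouse and the highest Low AA mouse were separated by a single scaled read. The means were 313 ± 22.1 and 277 ± 9.68, with a log2 fold change of -0.18 (SE 0.10, limma adjusted p = 0.551). The exact two-sided permutation test gave p = 0.0286, the smallest that the 70 assignments of 8 mice allow. Any gene whose diets do not overlap gets this value, as 6.81% of all genes do, so it only restates the lack of overlap. In the other genes of the 9 the same permutation test gave p = 0.0857 to 0.886. Rdh11 was also among the steadiest genes: its SD within a diet was 0.08 on the log2 scale, and 3.39% of all genes had a smaller one.

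**Figure D3:**
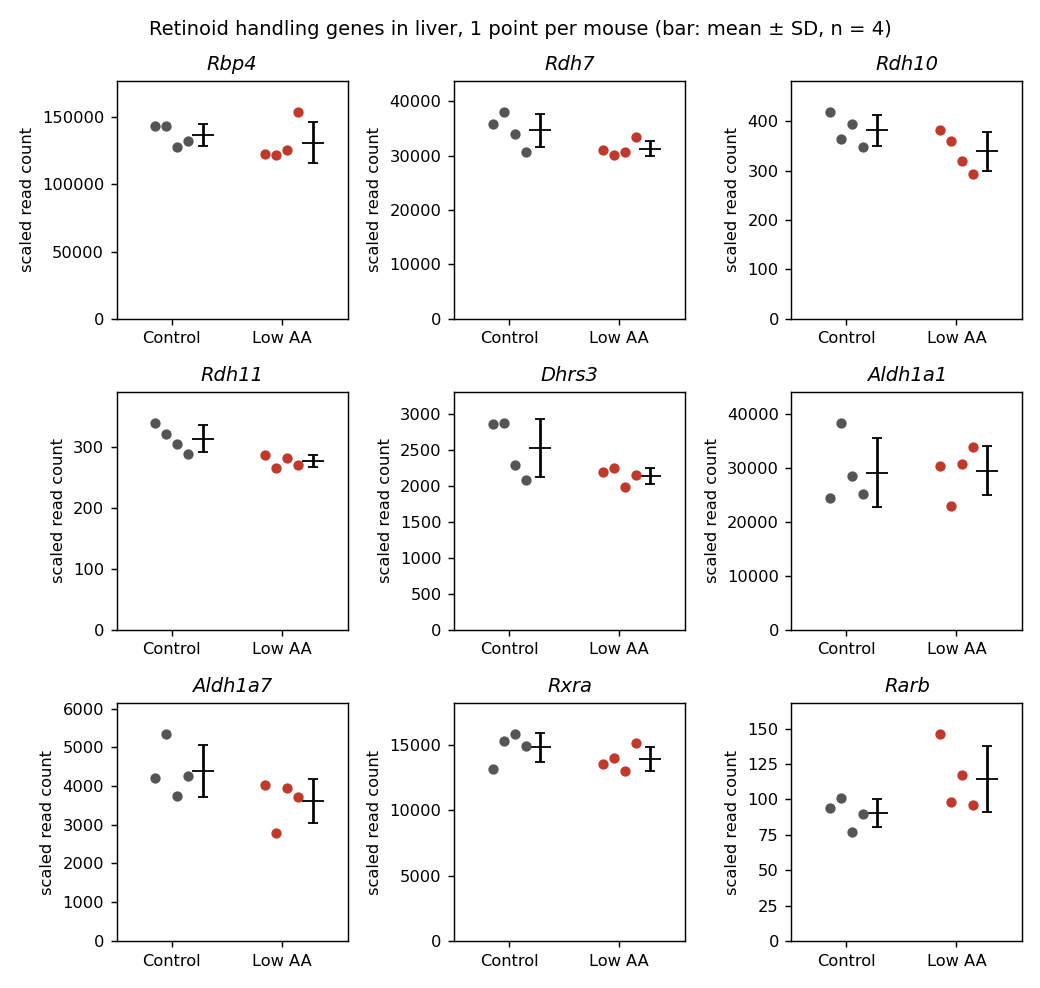
Scaled reads of each of the 9 genes in every mouse, 4 Control and 4 Low AA, each gene on its own axis. The diets overlap in 8 of the 9 genes, and in Rdh11 the lowest Control value of 288 is next to the highest Low AA value of 287.

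The Aldh1a family is represented by 2 neighbouring genes. Aldh1a1 (chr19:20492715-20643465, plus strand) encodes the main retinal dehydrogenase of adult liver, and Aldh1a7 (chr19:20692953-20727562, minus strand), 49.5 kb away, is a rodent gene closely related to it. Aldh1a1 had 24335, 38292, 28590 and 25220 scaled reads in Control and 30348, 23017, 30665 and 33812 in Low AA. The highest and the lowest of its values, in F2212 and H828, belonged to Control and Low AA, while among the other mice the 3 Low AA values, from 30348, lay above the 3 Control values, up to 28590. The means were 29109 ± 6390 and 29461 ± 4571, with a log2 fold change of 0.03 (SE 0.17, limma adjusted p = 0.973) and an interval from -0.35 to 0.40. The sign of this value was set by single mice: it was -0.05 without F129, -0.03 without F2110 and -0.04 without H1315.

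Aldh1a7 had 4207, 5338, 3740 and 4263 scaled reads in Control and 4017, 2794, 3946 and 3722 in Low AA. Except for F7111, every Control mouse was above every Low AA mouse. The means were 4387 ± 676 and 3620 ± 565, with the most negative log2 fold change of the 9 genes, -0.28 (SE 0.15, limma adjusted p = 0.506) and an interval from -0.60 to 0.04. Without H828, its lowest mouse, the value was -0.16, less negative than Dhrs3 and Rdh10 at -0.25 and -0.20 in the same fit. Of the 100-base windows, 1 of 1967 in Aldh1a7 and 1 of 2259 in Aldh1a1 occurred in another gene's transcript, so few reads could pass between them.

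Within each mouse, Aldh1a1 exceeded Aldh1a7 by a log2 ratio of 2.72 ± 0.20 in Control and 3.02 ± 0.12 in Low AA. The Control ratios ran from 2.53 to 2.93 and the Low AA ratios from 2.92 to 3.18, so the ranges met at 1 mouse of each diet. On the linear scale the mean ratio was 6.58 in Control and 8.14 in Low AA. The log2 difference of 0.31 stayed between 0.24 and 0.38 when each mouse in turn was left out; it was chosen as a description and has no test.

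**Figure D4:**
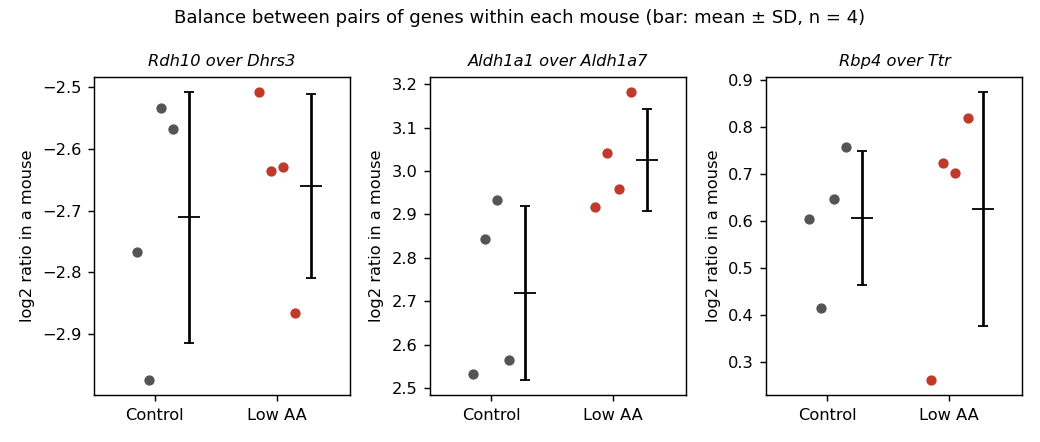
Log2 ratio in each mouse of Rdh10 to Dhrs3, Aldh1a1 to Aldh1a7 and Rbp4 to Ttr, 4 mice per diet, with mean ± SD; each panel has its own axis. The Aldh1a1 to Aldh1a7 ratios center on 2.72 in Control and 3.02 in Low AA, and the other ratios have nearly the same mean in both diets.

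Of the receptors, Rxra (chr2:27676440-27762957, plus strand), the main RXR of liver and the partner of many nuclear receptors, had 13182, 15300, 15799 and 14895 scaled reads in Control and 13513, 13972, 12958 and 15142 in Low AA. The diets overlapped, since F129 was as low as the Low AA mice and H1315 was among the higher Control mice (means 14794 ± 1136 and 13896 ± 928, log2 fold change -0.09, SE 0.10, limma adjusted p = 0.794). Rarb (chr14:16430839-16819156, minus strand), a retinoic acid receptor whose own transcription rises with retinoic acid, had 94, 101, 77 and 90 scaled reads in Control and 146, 98, 117 and 96 in Low AA. Only F2212 among the Control mice reached the lower Low AA mice, H828 and H1315. The means were 90.5 ± 10.1 and 114 ± 23.2, with the largest positive log2 fold change of the 9 genes, 0.32 (SE 0.17, limma adjusted p = 0.523), which was 0.20 without H1126, its highest mouse. The interval of the Rarb difference ran from -4.20% to 62.4% of the Control level, with a point value of 24.7%. It is also the lowest of the 9 genes, and log2(value + 1) slightly understates changes of low genes. The Rarb span overlaps Top2b on the opposite strand; the library kit keeps strand, but the sources used here do not say whether counting used it.

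The extreme values gathered in a few mice. F2212 had the highest value of the 8 mice in 4 genes, Rdh7, Dhrs3, Aldh1a1 and Aldh1a7, and H828 had the lowest in 5, Rbp4, Rdh7, Rdh11, Aldh1a1 and Aldh1a7. F2212 is also the mouse with the high acute-phase and Cela1 levels given above, and H828 was the opposite acute-phase extreme. Weighted equally, as the mean of log2 levels centred over the 8 mice, the acute-phase genes stood at 2.15 in F2212 and -1.69 in H828. In the other mice they ran from -0.26 to 0.11. The part of these levels in the retinoid values of F2212 and H828 was not tested. Without F2212 the log2 fold change moved to -0.10 in Rdh7, -0.16 in Dhrs3, 0.17 in Aldh1a1 and -0.18 in Aldh1a7, and limma called none of these genes. The SD within a diet, on the log2 scale, was 0.13 in Rbp4, 0.10 in Rdh7, 0.15 in Rdh10, 0.17 in Dhrs3, 0.11 in Rxra, 0.23 in both Aldh1a7 and Rarb, and 0.27 in Aldh1a1, beside a median of 0.22 over all genes.

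The 3 of the 9 with the largest moderated t statistics were compared with all genes by the distance between their profiles, each scaled to a mean of 0 and an SD of 1 over the 8 mice. Aldh1a7 was nearest to Irf1 (distance 0.270), 2210039B01Rik (0.317) and Capg (0.319), beside a median of 1.39 over genes. Rarb was nearest to Zfp93 (0.257), Nrp2 (0.327) and Fam49b (0.343), and Dhrs3 to Rilpl1 (0.223), Tmem179b (0.254) and Pld2 (0.300). These distances are a description and have no test. The named genes were picked as the nearest of all genes, so they lie below the median by selection.

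The rest of the pathway was taken from 9 lists of retinoid genes. Of their 81 distinct symbols, 60 were in the table, and 51 of those are not among the 9 genes. Limma called 0 of the 51 higher and 1 lower, Aox1, beside 0.399% of all genes in either direction. Of the 51, 34 were positive and 17 negative, with a median log2 fold change of 0.09. An unadjusted limma p under 0.05 was found in 14 (27.5%), beside 11.8% of all genes. The lists were written with earlier results of these data known, so the higher share cannot be read as a response of the pathway. The diets did not overlap in 2 genes that were higher in Low AA, Ces1d and Rarg, and in 3 that were lower, Rdh5, Aox1 and Rarres1. Over all genes the diets did not overlap in 6.81%, in either direction.

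Aox1, an aldehyde oxidase whose substrates include retinal, had 1476, 1956, 1741 and 1738 scaled reads in Control and 824, 1029, 704 and 753 in Low AA. Every Low AA mouse was below every Control mouse, and it fell by 1.07 on the log2 scale (SE 0.14, limma adjusted p = 0.0106), with a limma adjusted p of 0.00835 to 0.0456 over the alternatives. Of the 5 genes found in the retinal oxidation list, which includes Aldh1a7, 3 were negative and 1 passed the test. Activity on retinal was not measured.

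Of the 6 transport and binding genes found, 4 were negative (median log2 fold change -0.08), and none passed. Of the 6 storage and hydrolysis genes, 4 were positive (median 0.19). Lrat, which makes retinyl esters in stellate cells, had 543, 438, 462 and 414 scaled reads in Control and 533, 456, 384 and 445 in Low AA (log2 fold change -0.03, SE 0.13, limma adjusted p = 0.953). The 20 stellate cell markers, Lrat included, summed to 15788 to 19440 in Control and 15664 to 19286 in Low AA, a sum set mainly by the most abundant of them. Each marker was then weighted equally, as the mean of log2 levels centred over the 8 mice. On this scale the Control mice ran from 0.031 to 0.199 and the Low AA mice from -0.174 to 0.022. The ranges did not overlap, but the gap was narrow and depended on Acta2. The lowest Control mice on this scale, F2212 and F2110 (both 0.031), had the highest Acta2 levels, 406 and 119 scaled reads. The highest Low AA mouse, H1126 (0.022), had 24. The gap therefore cannot be read as a shift of the 20 markers together, and the weight of the other markers was not tested. Of the 20, 13 were negative and limma called none. The collagen gene Col1a1 was the only one whose diets did not overlap (log2 fold change -1.07, limma adjusted p = 0.148). Over all genes the diets did not overlap in 6.81%. In Col1a2 the log2 fold change was -0.58 (limma adjusted p = 0.220). The part of these marker levels in the retinoid values was not tested. In whole liver, fewer cells of a type and less RNA per cell cannot be told apart. Ces1d, a carboxylesterase able to hydrolyse retinyl esters, had 14276, 12608, 12471 and 9646 scaled reads in Control and 28130, 16916, 22556 and 20834 in Low AA. All Low AA mice were above all Control mice (log2 fold change 0.84, SE 0.17), yet it did not pass (limma adjusted p = 0.0754).

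Of the 17 retinol and retinal genes found, 11 were positive and 6 negative (median log2 fold change 0.13), and none passed; the 4 that belong to the 9 genes were all negative. Rdh5, a dehydrogenase of cis-retinol, had 150, 178, 166 and 149 scaled reads in Control and 126, 99, 104 and 144 in Low AA (log2 fold change -0.45, SE 0.15, limma adjusted p = 0.264). The neighbours of Rdh7 were mixed in sign: the log2 fold change was 0.24 in Rdh9 and 0.23 in Rdh16 (limma adjusted p = 0.790 and 0.409), and, as in Rdh7, negative at -0.78 in Rdh18-ps (limma adjusted p = 0.378), a pseudogene by its symbol. Elsewhere in the genome, Rdh13 and Rdh14 had log2 fold changes of 0.49 and 0.07 (limma adjusted p = 0.294 and 0.869).

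All 3 genes of retinoic acid breakdown were positive (median log2 fold change 0.20) and none passed. The largest value was in Cyp2c39 (log2 fold change 0.84, SE 0.33, limma adjusted p = 0.341). Its diets overlapped, since the Control mouse F2110, at 208, lay within the Low AA range of 189 to 220. Cyp26a1, whose promoter is shown above, had 30, 42, 38 and 43 scaled reads in Control and 51, 37, 24 and 57 in Low AA. The lowest value was in H817, so the mice of one diet enclosed those of the other (log2 fold change 0.08, SE 0.28, limma adjusted p = 0.946). Cyp26b1 had 168, 617, 416 and 508 in Control and 467, 578, 228 and 615 in Low AA, with a low mouse in each diet (log2 fold change 0.20, SE 0.41, limma adjusted p = 0.905). The 2 promoters with a DR5 run belonged to genes with log2 fold changes of 0.32 and 0.08, neither of which passed.

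The other retinoid receptors were split in sign. Rarg had 155, 154, 122 and 136 scaled reads in Control and 185, 167, 180 and 199 in Low AA, without overlap (log2 fold change 0.37, SE 0.13, limma adjusted p = 0.279). Rara had 238, 432, 437 and 421 in Control and 279, 251, 254 and 360 in Low AA (log2 fold change -0.39, SE 0.21, limma adjusted p = 0.521). In Rara the Control mouse F129 was the lowest of all 8, while the other 3 Control mice were above every Low AA mouse; without F129 the log2 fold change was -0.60 (limma adjusted p = 0.173). Rxrb and Rxrg had log2 fold changes of 0.08 and -0.09 (limma adjusted p = 0.819 and 0.946). Of the 10 RXR partner receptors found, 7 were positive (median 0.12) and none passed.

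Of the 11 genes listed as responding to retinoic acid, Rarb and Dhrs3 among them, 6 were positive and 5 negative (median log2 fold change 0.08). Rarres1, named for its response to retinoids in skin, had 2854, 1257, 1690 and 1689 scaled reads in Control and 608, 599, 1084 and 811 in Low AA. Every Low AA mouse was below every Control mouse (log2 fold change -1.25, SE 0.26), but the gene did not pass (limma adjusted p = 0.0793). Without F2212 it passed, with a limma adjusted p of 0.0386. Both carotenoid cleavage genes were found, 1 positive and 1 negative, and neither passed.

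**Figure D5:**
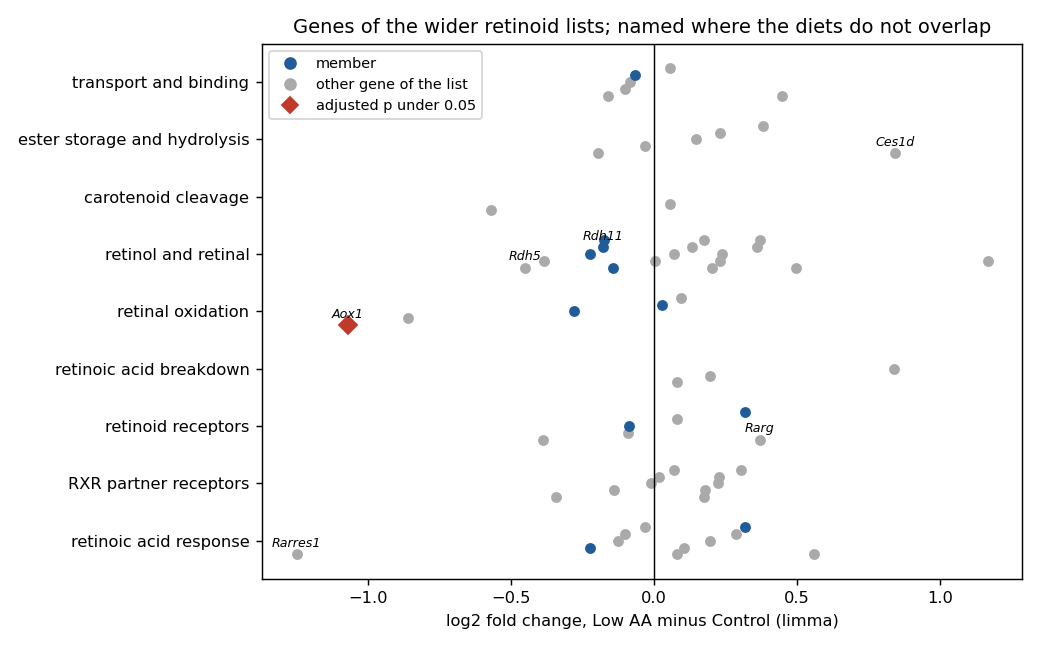
Log2 fold change, Low AA minus Control, of the 60 genes found in the 9 retinoid lists, 1 row per list, with genes of 2 lists in both rows; the 9 genes are the dark points, and genes whose diets do not overlap are named. Aox1, at -1.07, is the only diamond, the mark of an adjusted p under 0.05 in limma, while the dark points lie between -0.28 and 0.32.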

How the data were processed

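Liver RNA of 8 mice was sequenced as stranded poly(A) libraries with 100-base single reads. The values the authors deposited are signal: read counts that were scaled between mice and rounded, per gene. Beside them stand deposited fold change scores and FDR values (q-values) of the authors' own comparison, which were not used. The submitters' processing notes name bcl2fastq 1.8.2, STAR 2.5.0a, RSEM 1.2.6, edgeR 3.10.5, R 3.2.1 and mm10; no source used here gives the scaling method. The depth of raw reads cannot be recovered, so the precision comes from the 4 mice per diet.

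Here log2(value + 1) was fitted with limma 3.58.1 (R 4.3.3, mean-variance trend) over all 11784 genes, with Benjamini-Hochberg adjustment over all genes, a two-sided test and a threshold of 0.05. Requiring 1 scaled read or more in 4 or more mice removed 0 genes; every gene reached 28 in at least 3 mice, so low genes had been removed before. The fit was tested on simulated data. Exact permutation tests used the 70 assignments of 8 mice. Transcript lengths and coordinates came from GENCODE M21 and promoters from RefSeq, both on GRCm38, the same assembly as mm10; Rdh10 had no promoter entry. Named were the 9 genes, called or non-overlapping genes of the wider lists, Ttr, Lrat, the receptors, Cyp26 enzymes, Cyp2c39, Rdh relatives and nearest profiles. The genes and lists were chosen with earlier results of these data known. Each mouse is 1 sample; cages and batches are not named in the labels. Alternatives were other pseudocounts, 8000 genes with the highest mean, other scalings and limma settings, and leaving out each mouse. Count-based tests were not run, since the values are not raw counts.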

Additional observations from a re-analysis of the deposited data

Results flagged for a closer look

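Of 126 groups of 4 mice examined (63 genes and ratios in each diet), 8 (6.35%) had a mouse whose gap to the nearest other, divided by the range of its group, exceeded the 95% critical value of Dixon's test. Chance gives about 1 in 20 groups, and no cause was tested. Among the 9 genes this was Rbp4 in Low AA, where H1315 was the highest (gap share 0.880). In the wider lists, H1315 was also the highest Low AA mouse in Scarb1, the lipoprotein receptor that takes up carotenoids (0.964), and H828 the lowest in Nr1i3, the receptor CAR (0.871). Among Control mice, F2110 was the highest in Pnpla2, a lipase (0.856), and the lowest in Adh4, an alcohol dehydrogenase (0.903). F2212 was the highest Control mouse in Ces1e, a carboxylesterase (0.958). F129 was the lowest in Rara (0.939), and F7111 the lowest in Nr1h2, the receptor LXR beta (0.988).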

How the results depend on the processing

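None of the 9 genes was called by limma in any of the 16 alternatives, and the lowest limma adjusted p was 0.349 (Dhrs3 without F2110); Rarb was not among the 8000 highest genes and had 15. The number of all genes called was 47, and was 18 among the 8000 genes with the highest mean and 30 without the mean-variance trend. With each mouse left out it ran from 16 to 77, the highest without F2212; it was 29 without F129 and 21, 19 and 16 without H1126, H828 and H817. Genes called in the wider lists outside the 9 ranged from 1 to 2, the second being Rarres1 without F2212. Of the genes recomputed one by one, 6 changed sign, only when a mouse was left out: the log2 fold change ran from -0.051 to 0.17 in Aldh1a1, -0.084 to 0.32 in Cyp26a1, -0.20 to 0.51 in Cyp26b1, -0.11 to 0.045 in Lrat, -0.18 to 0.0026 in Ttr and -0.30 to 0.16 in Rxrg. Of the 9 genes, 1 to 3 did not overlap between diets, the most without F2110, and 1 reached an unadjusted limma p under 0.05 without F7111 (Aldh1a7) or F2110 (Dhrs3). No alternative scaling moved the median of all genes by more than 0.02. The cause of these changes was not tested. No paired analysis was possible because no mouse code occurs in both diets. Reads per mouse are unknown, and 4 mice per diet limit the smallest exact permutation p to 0.0286.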
